A study of Mus musculus with 7 samples.

Results

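Messenger RNA of 9 genes of GABA signalling was followed in sorted cells of the fetal mouse bowel: the GABA-A receptor subunit genes Gabra2, Gabra3, Gabra4, Gabra5, Gabrb1, Gabrb2 and Gabrg1, and Gad1 and Gad2, which encode the enzymes that make GABA. They were chosen by name from 19938 genes measured. Each gene was represented by a probe set (a group of array probes read as 1 value) that the platform annotation assigns to that gene alone, and where a gene had several, by the one with the highest mean over all arrays. The cells came from whole bowel of Wnt1-Cre; R26R-EYFP embryos at embryonic day 17.5. Wnt1-Cre is a recombinase driven by a promoter active in the neural crest, and the R26R-EYFP reporter makes a yellow fluorescent protein in cells in which Cre has acted and in their descendants. Sorting by fluorescence gave 4 YFP-positive samples, labelled enteric neural crest-derived cells (ENCDC), and 3 YFP-negative samples, labelled non-ENCDC. By the labels both groups carry the same alleles and are of the same age, and were told apart by the sort. The study looked for genes enriched in ENCDC that could act late in the development of the enteric nervous system.

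GABA-A receptors are chloride channels in the cell membrane that open when GABA binds, and each is a ring built from alpha, beta and usually gamma or delta subunits. GABA binds between an alpha and a beta subunit, and benzodiazepines act between an alpha and a gamma subunit. Gad1 and Gad2 make GABA from glutamate, in the cell body and at nerve terminals. In the adult bowel GABA is a transmitter of a small share of enteric neurons, and its receptors are found on many more.

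Values are log2 levels after robust multi-array averaging (RMA), and a difference of 1 is a 2-fold change. The median of all 19938 genes was 5.87 to 5.92 on the 7 arrays. Correlations over genes were 0.984 to 0.994 among YFP-positive arrays, 0.980 to 0.992 among YFP-negative arrays and 0.913 to 0.951 between the groups. All 6 measured neuronal markers and all 5 glial markers were higher in YFP-positive cells. The mean neuronal level was 10.02, 9.87, 9.67 and 9.36 on YFP-positive arrays 1 to 4, and 5.23 to 5.68 on YFP-negative arrays. All 6 fibroblast markers and all 6 myeloid markers were lower in YFP-positive cells, and none of 7 epithelial markers passed the test. The 7 epithelial markers had a mean level of 7.40 and 7.83 on YFP-positive arrays 1 and 2, and of 8.46 and 8.73 on arrays 3 and 4, against 8.24 to 8.28 on YFP-negative arrays. Results below are therefore also given without YFP-positive arrays 3 and 4 where this changed a call. That fit has fewer arrays. Over all genes it called 1292 higher and 1392 lower, against 1672 and 1817 with all arrays. A call lost there need not mean a smaller difference. Separate animals are not stated in the labels for the samples of either group. The p-values therefore cover the variation among these 7 samples only, which may be technical.

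Of the 9 genes 1 was lower and 0 were higher in YFP-positive cells at a limma adjusted p under 0.05. Over all genes 9.11% were lower and 8.39% higher by the same rule, so a count of 1 lower gene among 9 lies near the background. The gene that fell was Gabra3, and the other 8 had log2 fold changes between -0.08 and 0.18. Of the 9 genes 1, Gabra3, had an unadjusted limma p under 0.05, a threshold that 30.2% of all genes passed. The median log2 fold change of the 9 genes was 0.02, and that of all genes was 0.01. The plot of the 9 genes by array shows Gabra3 as the only one of them whose groups did not overlap, which held for 26.9% of all genes in either direction.

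**Figure D1:**
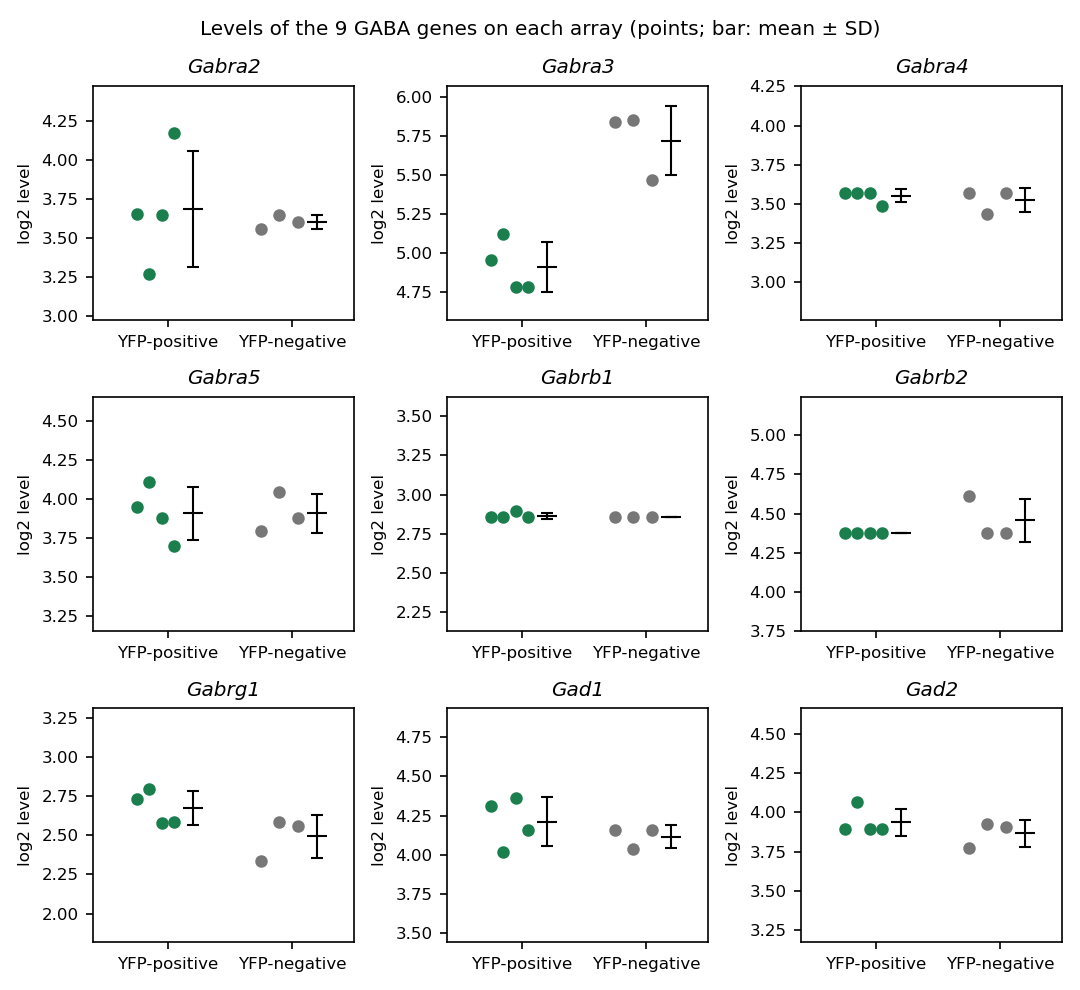
Log2 level of each of the 9 genes on the 4 YFP-positive arrays (green, left) and the 3 YFP-negative arrays (grey, right), with the mean and SD of each group as a bar. Each panel has its own vertical axis of the same length; the groups are apart for Gabra3, at 4.79 to 5.12 against 5.47 to 5.85, and overlap for the other 8 genes.

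Gabra3 encodes an alpha subunit that in the brain is found in the reticular thalamus and on monoaminergic neurons. Its log2 level was 4.96, 5.12, 4.79 and 4.79 on YFP-positive arrays 1 to 4, against 5.84, 5.85 and 5.47 on YFP-negative arrays 1 to 3. Every YFP-positive array was below every YFP-negative array. The group means were 4.91 ± 0.16 (SD, n = 4) in YFP-positive cells and 5.72 ± 0.22 (SD, n = 3) in the YFP-negative ones. The log2 fold change was -0.81 ± 0.13 SE (95% interval -1.11 to -0.50, limma adjusted p = 0.00547), which is 1.75-fold lower in YFP-positive cells. Without YFP-positive arrays 3 and 4 the log2 fold change was -0.68 and the call was lost (limma adjusted p = 0.0569). In such a mixture of cells, fewer cells that make a transcript and less of it per cell cannot be told apart.

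Markers of several non-neural cell types differed in the same direction as Gabra3. The mean level of the 6 fibroblast and mesenchyme markers was 7.58, 7.95, 8.48 and 8.74 on YFP-positive arrays 1 to 4, against 10.31, 10.29 and 9.63 on YFP-negative arrays 1 to 3. On the YFP-negative arrays Gabra3 and these markers were both lowest on array 3. The means of the smooth muscle, mesothelium and enteroendocrine markers were lowest there too. Those of the neuronal, glial, myeloid, endothelial and erythroid markers and of the interstitial cells of Cajal were highest on that array. The mean of 2 erythroid markers was 5.62 to 6.04 on YFP-positive arrays, and 6.46, 9.33 and 11.41 on YFP-negative arrays 1 to 3. Without YFP-negative array 3 the log2 fold change of Gabra3 was -0.93 (limma adjusted p = 0.00423). On the YFP-positive arrays the order was the other way round: Gabra3 was lowest on arrays 3 and 4, where the fibroblast markers were highest. The 6 smooth muscle markers, of which 2 fell, averaged 8.20 to 10.11 on YFP-positive and 10.33 to 10.87 on YFP-negative arrays. The 6 myeloid markers averaged 5.28 to 6.76 on YFP-positive and 9.98 to 10.32 on YFP-negative arrays. No marker is at 0 on this log scale, and the part of these cell types in the Gabra3 difference was not tested.

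**Figure D2:**
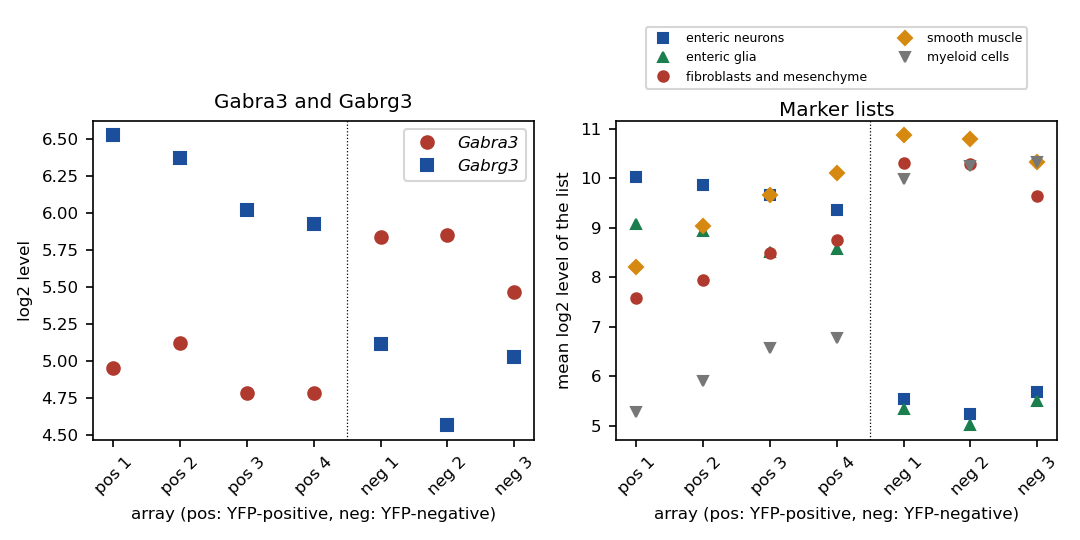
Left, log2 level of Gabra3 (red circles) and of Gabrg3 (blue squares) on each array, YFP-positive arrays first; right, mean log2 level of 5 marker lists on the same arrays. Gabra3 is lower on the YFP-positive arrays and Gabrg3 higher, at 5.93 to 6.53 against 4.57 to 5.11; among YFP-positive arrays the fibroblast, smooth muscle and myeloid means are higher on arrays 3 and 4, and the neuronal mean is higher on arrays 1 and 2.

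The genes most like Gabra3, ranked by Pearson correlation of log2 level over the 7 arrays, were Stard8 (r = 0.99), Serf2 (r = 0.99) and Glul, glutamine synthetase (r = 0.98). Stard8 had 5.41, 5.59, 5.28 and 5.10 on YFP-positive arrays 1 to 4, against 6.42, 6.33 and 5.93 on YFP-negative arrays 1 to 3. The correlations are descriptions: the 7 arrays form 2 groups that differ in many genes, and 100 genes had an r over 0.95 with Gabra3. The ranking and this count left out predicted loci, RIKEN and other clone names, olfactory receptors and small RNA genes.

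The other alpha subunit genes had overlapping groups. Gabra2, whose product sits at synapses of the axon initial segment in the brain, had a log2 level of 3.66, 3.27, 3.65 and 4.18 on YFP-positive arrays 1 to 4, against 3.56, 3.65 and 3.61 on YFP-negative arrays 1 to 3. YFP-positive arrays 2 and 4 were the lowest and the highest of all 7, and the YFP-negative values lay between them. Its log2 fold change was 0.08 ± 0.19 SE (95% interval -0.37 to 0.54, limma adjusted p = 0.820), the widest interval of the 8 genes. Gabra5, known from extrasynaptic receptors of the hippocampus, had 3.95, 4.11, 3.88 and 3.70 on YFP-positive arrays 1 to 4, against 3.80, 4.04 and 3.88 on YFP-negative arrays 1 to 3. Its group means, 3.91 in each, gave a log2 fold change of 0.00 ± 0.11 SE (95% interval -0.26 to 0.26). Gabra4, an alpha subunit that in the brain pairs with delta in extrasynaptic receptors, lay at 3.49 to 3.57 on YFP-positive and 3.44 to 3.57 on YFP-negative arrays (95% interval of the log2 fold change -0.12 to 0.17).

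The probe sets read for the beta subunit genes had the same value on most arrays. Gabrb1 had the same value, 2.85, on 6 arrays and 2.89 on YFP-positive array 3 (log2 fold change 0.01 ± 0.05 SE, 95% interval -0.10 to 0.12). Gabrb2 had 4.38 on all 4 YFP-positive arrays, against 4.61, 4.38 and 4.38 on YFP-negative arrays 1 to 3 (-0.08 ± 0.07 SE, 95% interval -0.25 to 0.09). Gabrb2 was measured by 3 probe sets, and the other two varied more between arrays, from 3.78 to 4.68 and from 3.75 to 4.35. Their log2 fold changes were -0.02 ± 0.22 and -0.01 ± 0.13 (SE), and 0 of the 3 passed. Gabrg1, the gamma subunit gene, had 2.73, 2.79, 2.58 and 2.58 on YFP-positive arrays 1 to 4, against 2.34, 2.58 and 2.56 on YFP-negative arrays 1 to 3. YFP-positive arrays 1 and 2 were above every YFP-negative array, while arrays 3 and 4 were not. The log2 fold change of 0.18 ± 0.09 SE did not pass (95% interval -0.03 to 0.39, limma adjusted p = 0.244).

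Neither gene of GABA synthesis differed between the groups beyond the spread of the arrays. Gad1, which encodes the form of the enzyme found throughout the neuron, had a log2 level of 4.31, 4.02, 4.36 and 4.16 on YFP-positive arrays 1 to 4, against 4.16, 4.03 and 4.16 on YFP-negative arrays 1 to 3. YFP-positive arrays 1 and 3 were the highest, and array 2 was the lowest of all 7. The log2 fold change was 0.10 ± 0.10 SE (95% interval -0.13 to 0.32, limma adjusted p = 0.565). Gad2, which encodes the form held at synaptic vesicles, had 3.89, 4.07, 3.89 and 3.89 on YFP-positive arrays 1 to 4, against 3.77, 3.92 and 3.90 on YFP-negative arrays 1 to 3. Only YFP-positive array 2 was above all YFP-negative arrays. Its log2 fold change was 0.07 ± 0.07 SE (95% interval -0.10 to 0.24, limma adjusted p = 0.571).

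The values carry no detection call, and those of the 8 genes other than Gabra3 were low on every array, from 2.34 to 4.61. As a gauge of low signal chosen after the values were seen, 1027 olfactory receptor genes, which are used in the nose, had a median level of 3.27, and 95% of their array values lay between 2.06 and 5.18. All values of the 8 genes were within this range, as were the YFP-positive values of Gabra3, while its YFP-negative values were above it. Probe sets differ in how strongly they bind, so this is no test of presence or absence. Of 9 genes 5 had exactly the same deposited value on 3 or more arrays, which held for 32.7% of all genes, 56.0% of the third with the lowest mean and 21.1% of the rest. Among the 4038 genes with a mean level in the range of the 8 genes, 2.95% passed the same limma threshold in either direction, against 17.5% of all genes. On the RMA scale the 95% intervals of the probe sets read allow at most a 1.45-fold higher level in YFP-positive cells for any of the 8 genes. In YFP-negative cells they allow at most a 1.29-fold higher level. The other Gabrb2 probe sets are not covered by these limits, and their log2 fold changes had a larger SE (0.22 and 0.13, against 0.07). Near background such folds understate the change in transcript number.

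Many GABA-A subunit genes lie in clusters. By the GRCm38.p6 RefSeq table, Gabrg1, Gabra2, Gabra4 and Gabrb1 lie together on chromosome 5, and 0 of these 4 passed the test. Gabra3 lies on chromosome X between Gabre and Gabrq, which encode epsilon and theta subunits and had log2 fold changes of -0.26 ± 0.13 and 0.10 ± 0.08 (SE), neither past the threshold. The next protein-coding gene to Gabra5 on chromosome 7 is Gabrg3, another gamma subunit gene, which rose. Of 16 GABA-A subunit genes measured, the 7 above and 9 others, 1 was higher and 1 was lower, and the median log2 fold change was 0.02. Over all genes 8.39% were higher and 9.11% lower. A further 3 subunit genes are not analysed here.

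Gabrg3 was the 1 of 9 other subunit genes that passed. Its log2 level was 6.53, 6.37, 6.02 and 5.93 on YFP-positive arrays 1 to 4, against 5.11, 4.57 and 5.03 on YFP-negative arrays 1 to 3, with no overlap. The YFP-negative values lie within the range of the olfactory receptor genes given above, and the YFP-positive values above it. The level was 2.48-fold higher in the YFP-positive samples, with a log2 fold change of 1.31 ± 0.19 SE and an adjusted p of 0.00374 by limma. It stayed past the threshold without any one array and without YFP-positive arrays 3 and 4 (1.55, limma adjusted p = 0.0123). The mean neuronal marker level on YFP-positive arrays 1 to 4 had the same order as Gabrg3, 10.02, 9.87, 9.67 and 9.36, and the mean glial marker level was 9.07, 8.94, 8.50 and 8.57. The part of either in the Gabrg3 values was not tested.

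The start-site regions of the pair of subunit genes that passed in opposite directions are shown because they differ in base composition. Each is a RefSeq window on GRCm38.p6, 250 bases before to 50 after a transcript start, read on the minus strand, for Gabra3 at chrX:72656870-72657169 and for Gabrg3 at chr7:57387166-57387465. Capitals mark CG dinucleotides, TATAAA and GGGCGG, each motif on either strand (on the other strand TTTATA and CCGCCC), and a CG can lie inside GGGCGG.
Gabra3: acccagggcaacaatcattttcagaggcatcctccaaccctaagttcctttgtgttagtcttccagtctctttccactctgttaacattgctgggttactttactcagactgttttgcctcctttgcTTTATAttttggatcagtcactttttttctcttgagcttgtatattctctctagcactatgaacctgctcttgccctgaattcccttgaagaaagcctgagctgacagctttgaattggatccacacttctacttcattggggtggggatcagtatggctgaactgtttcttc
Gabrg3: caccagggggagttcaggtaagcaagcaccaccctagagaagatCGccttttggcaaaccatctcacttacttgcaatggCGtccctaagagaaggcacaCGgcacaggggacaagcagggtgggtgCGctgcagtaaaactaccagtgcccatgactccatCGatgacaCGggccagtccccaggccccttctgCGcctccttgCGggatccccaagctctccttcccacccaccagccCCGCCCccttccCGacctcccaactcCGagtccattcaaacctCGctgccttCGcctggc
The Gabra3 window had a GC content of 43.0%, no CG and 1 match to TATAAA on the other strand. A second Gabra3 start, whose window overlaps the first, also had no CG. The Gabrg3 window had a GC content of 61.0%, 13 CG dinucleotides and a match to GGGCGG. Of 32851 windows in the table, 5.43% had no CG, 13.6% held TATAAA and 35.7% held GGGCGG, and the median was 7 CG. All 9 genes had a window, 13 in all, with 0 to 25 CG, of which 4 held TATAAA and 4 held GGGCGG. Of the 4 with TATAAA, 2 are the overlapping Gabra3 windows, which hold the same match. The 2 windows without CG were those of Gabra3. The windows of Gabra2 and Gad1, with 25 and 21 CG, belong to genes that did not pass. A match is a description of the letters and says nothing of a factor at work.

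Beyond the 9 genes, 7 lists of GABA signalling held 47 measured genes. In YFP-positive cells 9 of them rose and 3 fell, beside 8.39% and 9.11% of all genes. Their median log2 fold change was 0.06, against 0.01 over all genes. The lists were written with earlier results of these data known, so these figures are descriptions and no test of the lists. The count of 9 was 5 without YFP-positive array 4 or without YFP-negative array 1, and 4 without YFP-positive arrays 3 and 4.

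**Figure D3:**
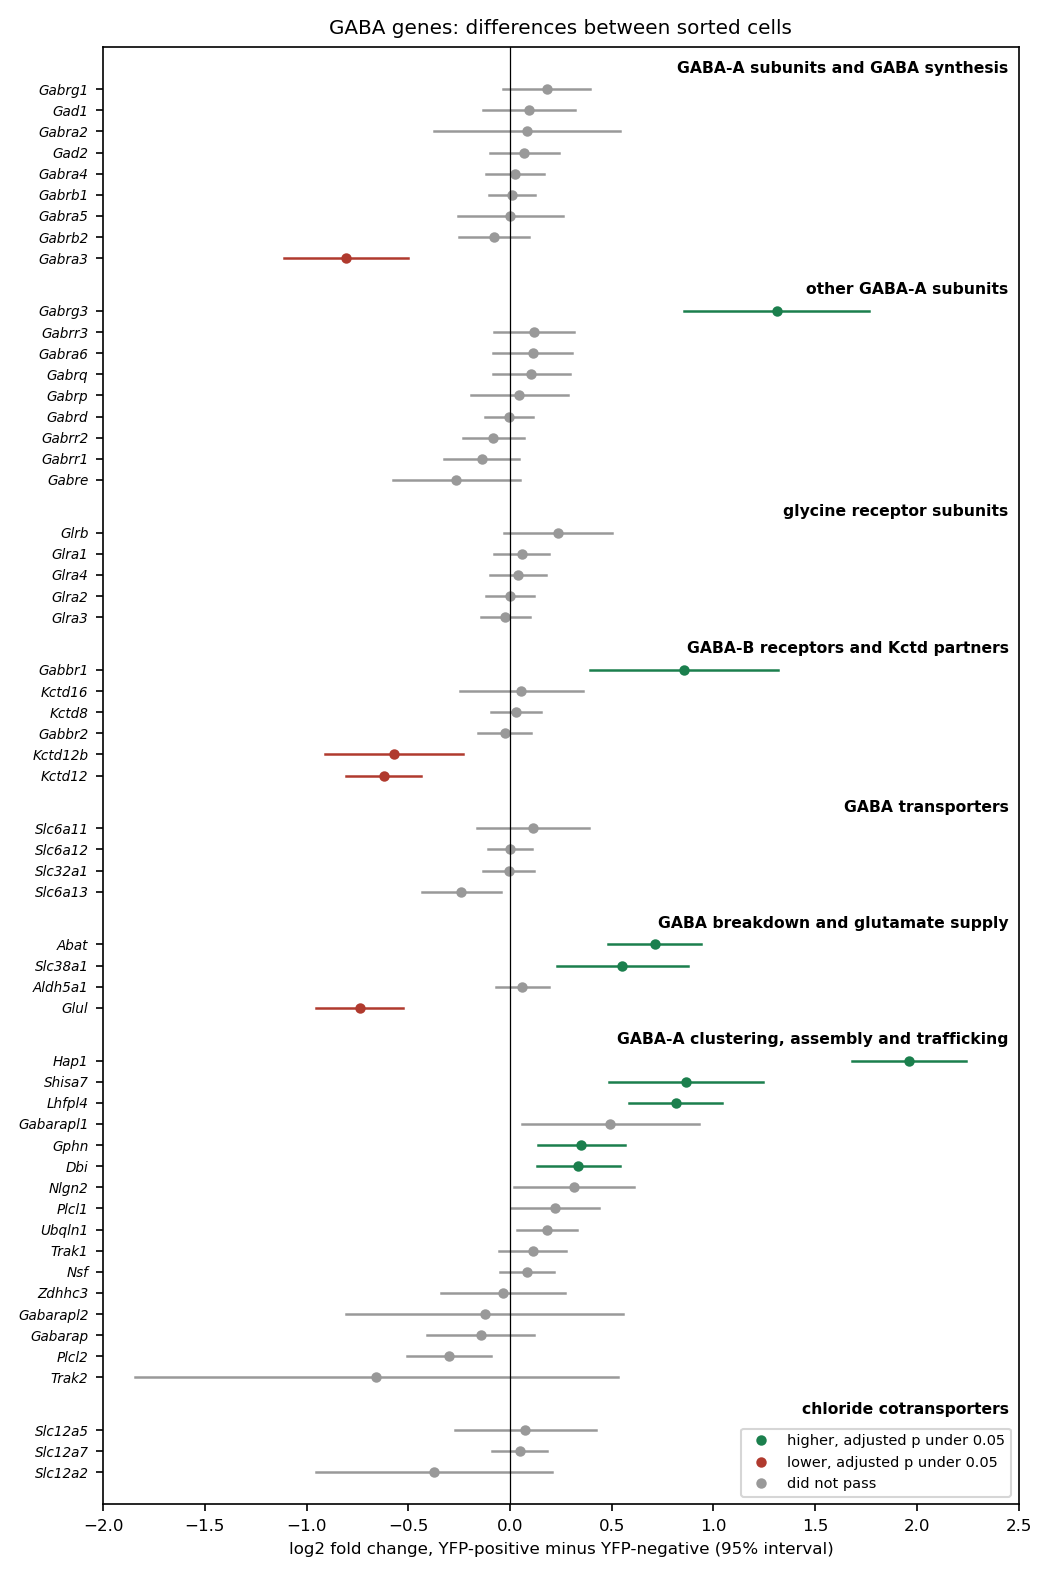
Log2 fold change of each measured GABA gene, YFP-positive minus YFP-negative, with its 95% interval; the 9 genes of the first block are followed by the 7 lists, green marks higher, red lower and grey not past the threshold. Hap1 lies farthest to the right at 1.96 and Gabra3 farthest to the left among those that passed, at -0.81.

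Among the 16 measured genes of clustering, assembly and trafficking, 5 passed as higher and 0 as lower, beside 8.39% and 9.11% of all genes. The median of the log2 fold changes of the 16 was 0.20, against 0.01 over all genes. Hap1, an adaptor that links GABA-A receptors to kinesin motors, had 7.31, 7.25, 7.03 and 7.24 on YFP-positive arrays 1 to 4, against 5.49, 5.07 and 5.17 on YFP-negative arrays 1 to 3 (log2 fold change 1.96 ± 0.12 SE, 3.90-fold, limma adjusted p = 9.57e-05). Shisa7, an auxiliary subunit of the receptor, rose by 0.87 ± 0.16, and Lhfpl4, which ties the receptor to neuroligin 2, by 0.81 ± 0.10 (log2 fold change ± SE). The call of Shisa7 was lost without YFP-positive arrays 3 and 4 (log2 fold change 0.84, limma adjusted p = 0.0958). Gphn, the scaffold protein gephyrin of inhibitory synapses, and Dbi, a ligand of the benzodiazepine site, were named after their values were seen. They rose by 0.35 ± 0.09 and 0.34 ± 0.09 (log2 fold change ± SE, limma adjusted p = 0.0386 for each). The call of Gphn was lost without any one array but YFP-negative array 2 (limma adjusted p up to 0.0955), and that of Dbi without any one array but YFP-positive array 1 (up to 0.103). Without YFP-positive arrays 3 and 4 together both calls were lost too, which left Hap1 and Lhfpl4 of the 5. The log2 fold change was then 0.31 for Gphn (limma adjusted p = 0.196) and 0.38 for Dbi (limma adjusted p = 0.102).

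GABA-B receptors, which act through G proteins, and their Kctd partner subunits went both ways, with 1 of 6 genes higher and 2 lower. Over all genes 8.39% were higher and 9.11% lower. Gabbr1, the subunit that binds GABA, had 8.37, 8.03, 7.87 and 7.996 on YFP-positive arrays 1 to 4, against 6.83, 7.21 and 7.60 on YFP-negative arrays 1 to 3. The groups did not overlap, and the log2 fold change was 0.85 ± 0.20 SE (limma adjusted p = 0.0242). Leaving out any one of YFP-positive arrays 1, 2 and 4 and YFP-negative arrays 1 and 2 ended the call (limma adjusted p up to 0.0865). So did leaving out YFP-positive arrays 3 and 4 together (log2 fold change 0.99, limma adjusted p = 0.0872). Gabbr2, the subunit needed to bring Gabbr1 to the membrane in the brain, is named here with its values known, and had a log2 fold change of -0.03 ± 0.05 SE. Its level was low, 4.52 to 4.63 on YFP-positive and 4.575 to 4.66 on YFP-negative arrays. These values lie within the range of the olfactory receptor genes given above, so the small SE is no measure of equal transcript number. Kctd12 fell by 0.62 ± 0.08 and Kctd12b by 0.57 ± 0.14 (log2 fold change ± SE). Leaving out any one of YFP-positive arrays 3 and 4 and YFP-negative arrays 1 and 2 ended the call of Kctd12b (limma adjusted p up to 0.117). Without YFP-positive arrays 3 and 4 together its log2 fold change was -0.38 (limma adjusted p = 0.144).

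Of 4 genes of GABA breakdown and glutamate supply 2 were higher and 1 was lower, beside 8.39% and 9.11% of all genes. Abat, the transaminase that degrades GABA, had 8.11, 8.10, 7.80 and 8.14 on YFP-positive arrays 1 to 4, against 7.40, 7.32 and 7.27 on YFP-negative arrays 1 to 3 (log2 fold change 0.71 ± 0.10 SE, limma adjusted p = 0.00269). Every YFP-positive array was above every YFP-negative array. Glul, which makes glutamine from glutamate, fell by 0.74 ± 0.09, and the glutamine transporter gene Slc38a1 rose by 0.55 ± 0.14 (log2 fold change ± SE). Leaving out any one of YFP-positive arrays 1, 3 and 4 and YFP-negative arrays 1 and 2 ended the call of Slc38a1 (limma adjusted p up to 0.117). Without YFP-positive arrays 3 and 4 together its log2 fold change was 0.51 (limma adjusted p = 0.165).

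Transport of GABA, chloride balance and glycine receptors gave 0 calls by limma among 12 genes measured. The share called was 17.5% of all genes, and 2.95% of the 4038 genes at the low level of the 8 genes above. Of the 4 GABA transporter genes 1, Slc6a13, had an unadjusted p under 0.05 (log2 fold change -0.24 ± 0.08 SE, adjusted p = 0.0981), and 0 of 3 chloride cotransporter and 0 of 5 glycine receptor genes did. The genes named here were chosen after their values were seen. Slc32a1, which loads GABA into synaptic vesicles, had 4.88, 4.90, 4.94 and 4.998 on YFP-positive arrays 1 to 4, against 4.94, 4.94 and 4.93 on YFP-negative arrays 1 to 3 (log2 fold change -0.01 ± 0.05 SE, 95% interval -0.13 to 0.12). Slc12a5, the cotransporter that lowers chloride in mature neurons so that GABA inhibits, had a log2 fold change of 0.07 ± 0.15 SE. All values of Slc32a1, Slc12a5 and the 5 glycine receptor genes lay within the range of the olfactory receptor genes given above. Near background their narrow intervals are no measure of equal transcript number. Slc12a2, which raises chloride in young neurons and is also a transporter of epithelia, had 7.60, 7.87, 8.40 and 8.60 on YFP-positive arrays 1 to 4, against 8.40, 8.67 and 8.40 on YFP-negative arrays 1 to 3. It was higher on YFP-positive arrays 3 and 4 than on 1 and 2, as were the epithelial markers given above, whose part in it was not tested. With all arrays its log2 fold change was -0.37 ± 0.24 SE (limma adjusted p = 0.370). Without YFP-positive arrays 3 and 4 it was -0.76 ± 0.14 SE and passed (limma adjusted p = 0.0332). Those arrays held the highest YFP-positive values of Slc12a2, so leaving them out necessarily lowers its fold change, and the call is no independent result.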

How the data were processed

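RNA of 4 YFP-positive and 3 YFP-negative sorted samples was measured. Per the labels' protocols, total RNA was extracted with Trizol and amplified into biotin-labelled cDNA with a kit for very small amounts. The deposited values are log2 levels per probe set, and per the submitters' processing notes the tools were RMA and Affymetrix Expression Console, whose versions are not stated there. RMA scales arrays to each other and can compress differences, as can amplification. Precision is limited by having 7 arrays.

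Of 35556 probe sets, 21789 had 1 gene symbol in the platform annotation, 1621 had several and 12146 none; probe sets with several or none were left out. Among the 19938 genes left, 999 had more than 1 probe set and were read from the brightest by mean. Entrez identifiers of 21698 probe sets matched the RefSeq table of GRCm38.p6. The test was limma 3.58.1 (lmFit, eBayes) in R 4.3.3 with the group as the only term, and Benjamini-Hochberg adjustment across the whole table at a threshold of 0.05. Summaries and plots used pandas 2.3.3, numpy 2.4.6 and matplotlib 3.10.9 under Python 3.11.15. The fit was tested on simulated data with the residual spread of each gene and 50 genes raised at each fold. It called 31 of 50 genes at 1.5-fold, 44 of 50 at 2-fold and 50 of 50 at 4-fold. Some changes of 1.5-fold to 2-fold can thus be missed. Fewer genes were changed there than were called in these data, so the shares may differ here. The 9 genes and all lists were chosen with earlier results of these data known. Named genes are the 9, up to 3 genes of each GABA list past the threshold with the largest change and 1 against them, and for up to 3 of the 9 past the threshold the 3 most correlated genes; others are said to be chosen after their values were seen. Alternatives were other eBayes options, scalings, filters and probe set rules, array weights, the replicate number as a block, each array left out in turn, and YFP-positive arrays 3 and 4 left out together.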

Additional observations from a re-analysis of the deposited data

Results flagged for a closer look

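Among 21 of the genes named in the text, 4 had an array in the YFP-positive group of 4 whose gap to the nearest other array took nearly the whole range. Chance gives such a gap in about 5% of groups. Stard8, Serf2, Gabre, Gabrq, Gabbr2, Slc6a13, Slc32a1, Slc12a5 and Slc12a2 were not among the 21. Gabra4 had 3.49 on YFP-positive array 4 and 3.57 on each of the others. Gabrb1 had 2.89 on YFP-positive array 3 and 2.85 on each of the others, and Gad2 had 4.07 on YFP-positive array 2 and 3.89 on each of the others. In these 3 genes the other arrays had exactly the same deposited value, so any departure of 1 array meets the rule, however small. Abat had its lowest YFP-positive value, 7.80, on array 3, while arrays 1, 2 and 4 had 8.10 to 8.14.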

How the results depend on the processing

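Gabra3 kept its direction under all 16 alternatives, with log2 fold changes from -0.93 to -0.68 and adjusted p from 0.00154 to 0.0569, and lost its call only without YFP-positive arrays 3 and 4, where 0 of the 9 genes were lower. The other 8 genes passed under none of the alternatives run on them; a filter on low mean levels removed them, so that alternative gave no value for them. Signs near 0 turned. Gabra2 was -0.079 with the replicate block and -0.14 without YFP-positive arrays 3 and 4, and ranged from -0.079 to 0.22 with 1 array left out; Gabra5 was -0.062 with array weights and ranged from -0.064 to 0.072, and Gabra4 from -0.021 to 0.046, with 1 array left out. The 9 higher genes of the 7 GABA lists were 4 without YFP-positive arrays 3 and 4, and 5 to 7 with 1 array left out. Over all genes the 1817 lower ones were 1166 without YFP-negative array 2, and 1166 to 1890 with 1 array left out. Same-numbered arrays of the groups did not deviate together (correlations -0.09 to 0.04, other numbers -0.16 to 0.27), so the numbers were not taken as pairs. With the replicate block 1245 genes were higher and 1264 lower, Gabra3 was -0.77 (limma adjusted p = 0.0136), and of the 21 genes followed only Gabbr1, Slc38a1, Gphn and Dbi lost their calls. YFP-positive array 4 has no YFP-negative array of its number, so it adds nothing to the fold change in that fit. The log2 fold changes with the block are therefore those without YFP-positive array 4, and the -0.079 of Gabra2 is 1 result given under both. The call of Kctd12b was lost with arrays quantile normalized again (limma adjusted p = 0.0519).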
